A study of Mus musculus with 4 samples.

Results

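Collagens and laminins are the main structural proteins of the matrix around cells. Their chains are encoded by 55 of the 32285 genes in the RNA matrices, taken by symbol as every collagen alpha chain and every laminin alpha, beta or gamma chain. They comprise 6 collagen IV chains and 11 laminin chains, called basement membrane chains here, 11 fibrillar collagen chains, and 27 others. The others are 9 fibril-associated, 6 beaded-filament, 4 transmembrane, 3 network-forming and 2 multiplexin chains, 1 anchoring-fibril chain and 2 further chains.

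Collagen IV and the laminins each assemble into a network, and nidogens and perlecan tie the networks into the basement membrane that wraps every adipocyte and underlies the endothelium of vessels. A laminin molecule joins an alpha, a beta and a gamma chain, and the alpha chain sets which receptors it binds. Fibrillar collagens build the fibres of the stroma and in fat are made mostly by fibroblasts and adipocyte progenitors.

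The study set adipocytes of the thymus against those of a classical white fat depot. Single-nucleus RNA came from 2 libraries of 4-month-old naive wild-type male mice: 6 pooled thymi of C57/BL6 mice on standard chow, and epigonadal white adipose tissue, whose strain, diet and number of animals the labels do not give. Chromatin accessibility came from 1 multiome library of 16 pooled thymi of 6-month-old naive wild-type female C57/BL6 mice on standard chow, whose RNA was not analysed here. Thymic capsules were freed of attached fat, tissue was digested with collagenase, and nuclei were taken from the floating layer. The authors split RNA nuclei into Ad I (with Ia and Ib, pooled below unless named) and Ad II (with IIa, IIb and IIc), and chromatin nuclei into thyAD I, thyAD II and Immune.

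Each group was 1 library, so depot, library and any difference in strain or diet cannot be told apart, no test between groups was possible, and intervals cover counting error only. Age and sex both differ between the RNA and the chromatin libraries. The thymic matrix held 365 labelled nuclei with 534972 UMIs (unique molecular identifiers, 1 per captured RNA molecule) of nuclear-encoded genes and 22235 barcodes without a label. The epigonadal matrix held 1564 labelled nuclei with 2157889 such UMIs and 3479 barcodes without a label. The matrices shared 147 barcode sequences, of which 0 were labelled in both. Labels were checked against markers. The 9 endothelial markers summed to 8736 CPM (counts-per-million of nuclear-encoded UMIs) in thymic and 6501 in epigonadal Ad IIa, against 1244 and 1054 in Ad I. In thymic Ad I 8 of 84 nuclei had such a UMI and 1 nucleus held 39 of the 65, without which the sum was 534 CPM. The 10 adipocyte markers summed to 3126 and 5029 CPM in Ad IIa, against 16232 and 20811 in Ad I and 2468 and 5885 in unlabelled barcodes. Adipoq, which encodes the adipocyte hormone adiponectin, stood at 9.96 CPM in thymic Ad IIa, below its 99.5 in unlabelled thymic barcodes, while the endothelial gene Pecam1 stood at 986. In epigonadal Ad IIa Adipoq stood at 449 CPM, also below its unlabelled level of 749, and Pecam1 at 890.0. The Adipoq level and the adipocyte sum of thymic Ad IIa thus lie on opposite sides of the unlabelled level, while the endothelial sum exceeds the adipocyte sum of the same nuclei, and Ad IIa is called by its label only.

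The start regions of 5 chains are printed because the values below turn on these genes, 3 of the basement membrane and 2 of stromal fibres. Each window runs from 250 bases before to 50 bases after a RefSeq start site on build GRCm38.p6, printed 5′ to 3′ on the strand of the gene. Capitals mark 3 motifs searched on both strands: the GC box GGGCGG, the CCAAT box and the TATA box TATAAA, none of which overlap each other in these windows.
Col4a1: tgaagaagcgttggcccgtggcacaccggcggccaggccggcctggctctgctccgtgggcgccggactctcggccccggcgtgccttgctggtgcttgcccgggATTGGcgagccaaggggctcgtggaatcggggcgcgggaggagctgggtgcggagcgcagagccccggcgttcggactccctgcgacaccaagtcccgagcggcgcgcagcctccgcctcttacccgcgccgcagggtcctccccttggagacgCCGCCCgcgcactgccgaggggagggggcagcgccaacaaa
Col4a2: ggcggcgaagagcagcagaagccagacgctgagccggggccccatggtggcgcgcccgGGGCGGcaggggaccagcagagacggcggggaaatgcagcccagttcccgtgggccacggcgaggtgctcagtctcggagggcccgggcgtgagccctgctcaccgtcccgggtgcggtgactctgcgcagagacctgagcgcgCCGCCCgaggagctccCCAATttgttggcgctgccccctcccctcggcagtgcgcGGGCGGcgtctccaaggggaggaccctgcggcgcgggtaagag
Lama5: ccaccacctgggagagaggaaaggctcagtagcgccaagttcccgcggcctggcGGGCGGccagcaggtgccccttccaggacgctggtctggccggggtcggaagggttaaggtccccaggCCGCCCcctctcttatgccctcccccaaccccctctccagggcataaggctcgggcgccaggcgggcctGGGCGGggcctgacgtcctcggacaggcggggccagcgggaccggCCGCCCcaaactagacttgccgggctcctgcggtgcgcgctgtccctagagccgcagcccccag
Col1a2: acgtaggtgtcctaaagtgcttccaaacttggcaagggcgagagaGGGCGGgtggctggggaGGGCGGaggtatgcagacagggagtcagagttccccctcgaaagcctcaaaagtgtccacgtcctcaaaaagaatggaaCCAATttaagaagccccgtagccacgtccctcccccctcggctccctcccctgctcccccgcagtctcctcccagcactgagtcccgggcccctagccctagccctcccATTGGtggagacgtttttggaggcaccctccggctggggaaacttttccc
Col3a1: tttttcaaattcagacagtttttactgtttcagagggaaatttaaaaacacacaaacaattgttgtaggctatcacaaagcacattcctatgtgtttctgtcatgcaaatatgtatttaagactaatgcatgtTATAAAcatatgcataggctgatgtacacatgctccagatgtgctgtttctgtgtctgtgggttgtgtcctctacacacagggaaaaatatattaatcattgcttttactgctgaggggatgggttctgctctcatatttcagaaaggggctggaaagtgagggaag
The Col4a1 window lies at chr8:11312777-11313076 on the minus strand and the Col4a2 window at chr8:11312555-11312854 on the plus strand. These genes encode the common collagen IV chains and are read in opposite directions from start sites 21 bases apart. The start of each lies inside the other gene, so their first bases overlap, and the windows share 78 bases. Lama5, a laminin alpha chain of vessel and epithelial basement membranes, starts within chr2:180225810-180226109 on the minus strand. Col1a2, a type I collagen chain, starts within chr6:4505368-4505667 and Col3a1, the type III collagen chain, within chr1:45311288-45311587, both on the plus strand. CpG pairs numbered 37 for Col4a1, 33 for Col4a2 and 24 for Lama5, 13 for Col1a2 and 0 for Col3a1, against a median of 7 over all 32851 windows. These 5 do not stand for their classes: over the members with an entry, 11 basement membrane windows held 1 to 37 CpG pairs with a median of 11, and 8 fibrillar windows 0 to 34 with a median of 14.5. The fibrillar gene Col5a1 had 34, and the basement membrane genes Lamb2 and Lama2 had 4 and 1. The GC box occurred 1, 3, 4 and 2 times in the windows of Col4a1, Col4a2, Lama5 and Col1a2 and 0 times in that of Col3a1, and 35.7% of all windows held it. The TATA box stood in the Col3a1 window alone among the 5, and 13.6% of all windows held it. The CCAAT box, present in 37.4% of all windows, was found 1 time each in the collagen IV windows and 2 times in Col1a2. Over the 40 members with an entry, 7 of 11 basement membrane windows and 6 of 8 fibrillar windows held a GC box. TATA boxes were in 0 of those 11 and 2 of those 8. A match describes letters and is no evidence of binding.

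Which chains the labelled nuclei carried was asked first. Basement membrane chains held 82.35% to 93.02% of the UMIs of all members in 4 thymic labels and 43.96% in Ad IIb, where Col8a1, described below, held most of the rest, and fibrillar RNA was at or near 0 in thymic Ad II. The thymic basement membrane sum was 2025 CPM for Ad Ia and 1709 for Ad Ib, while Ad IIa had 2115, Ad IIb 1480 and Ad IIc 1474. The fibrillar sum in the same order was 181, 325, 12.5, 0 and 0 CPM. With 0 UMIs, levels of up to 111 CPM in Ad IIb and 55.3 CPM in Ad IIc remain possible.

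UMIs of both classes were counted in every epigonadal label. The basement membrane sum was 1762 CPM for Ad Ia and 1696 for Ad Ib, while Ad IIa had 1799, Ad IIb 2508 and Ad IIc 531. The fibrillar sum was 682.5, 939.7, 164, 92.4 and 417 CPM in the same order. Ad IIc, with 658 nuclei, was thus the one epigonadal label whose basement membrane sum was near its fibrillar sum.

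Barcodes without a label gave the level against which these are read, since free RNA adds UMIs to every droplet. These barcodes also hold cells, so their level is not that of free RNA alone. Unlabelled thymic barcodes held 537 CPM of basement membrane and 231 CPM of fibrillar chains, and unlabelled epigonadal barcodes 1122 and 1138 CPM. The basement membrane sum of thymic Ad I and Ad IIa was 349% and 394% of the unlabelled level, and that of epigonadal Ad I and Ad IIa 154% and 160%. The fibrillar sum was 108% and 5.38% of it in thymic Ad I and Ad IIa, and 70.3% and 14.4% in epigonadal Ad I and Ad IIa. A fibrillar sum at or below the unlabelled level is read neither as expression by the labelled nuclei nor as its absence. Thymic Ad Ib, at 325 CPM on 8 UMIs with an interval of 141 to 641 CPM, cannot be told apart from the unlabelled 231. The reference matters: barcodes with fibroblast markers held 497 of the 1065 thymic and 1842 of the 4299 epigonadal unlabelled fibrillar UMIs. Unlabelled thymic barcodes that matched no marker list stood at 165 CPM, below both thymic Ad Ia and Ad Ib. The unassigned epigonadal barcodes stood at 1038 CPM, above the point values of both epigonadal Ad I labels, and the part of free RNA was not tested. Of the unlabelled thymic fibrillar UMIs, 1 barcode held 15.7%, and without it the unlabelled level was 195 CPM.

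**Figure D1:**
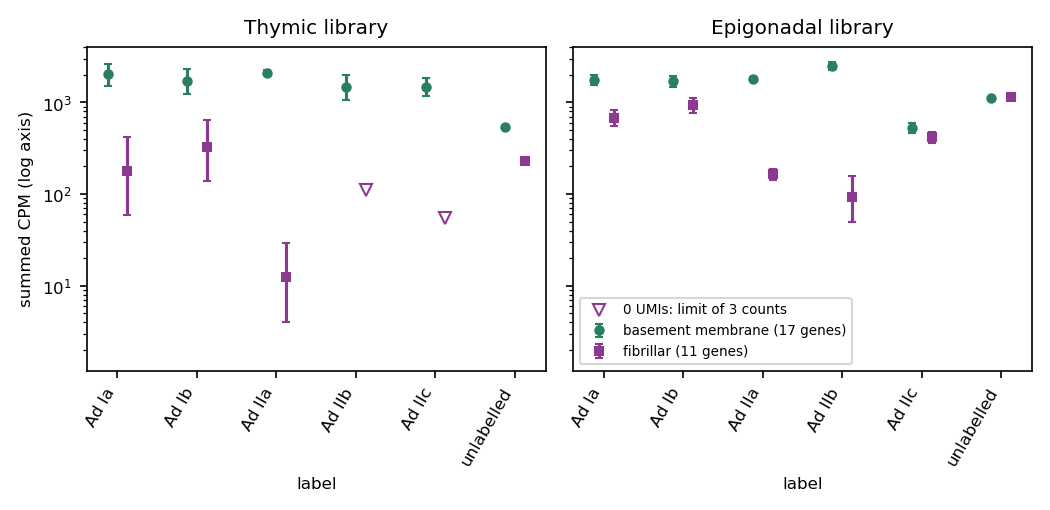
Summed CPM (log axis) of the 17 basement membrane chains and the 11 fibrillar chains by label, for the thymic and the epigonadal library. Bars are 95% Poisson intervals of counting error and triangles mark the limit that 0 UMIs allow. Thymic Ad IIa has 2115 CPM of basement membrane and 12.5 of fibrillar chains, and unlabelled epigonadal barcodes have 1122 and 1138.

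All 55 members can be accounted for. At least 10 UMIs in the labelled nuclei or the unlabelled barcodes of a library were reached by 42 members, 11 others reached at most 8, and Col2a1 and Col9a2 had 0 UMIs in both matrices. Among labelled nuclei, 28 members were detected in the thymic library, 10 of them with at least 10 UMIs, and 48 in the epigonadal library, 26 of them with at least 10. The thymic labelled nuclei held fewer UMIs, and the part of depth in the lower number was not tested.

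**Figure D2:**
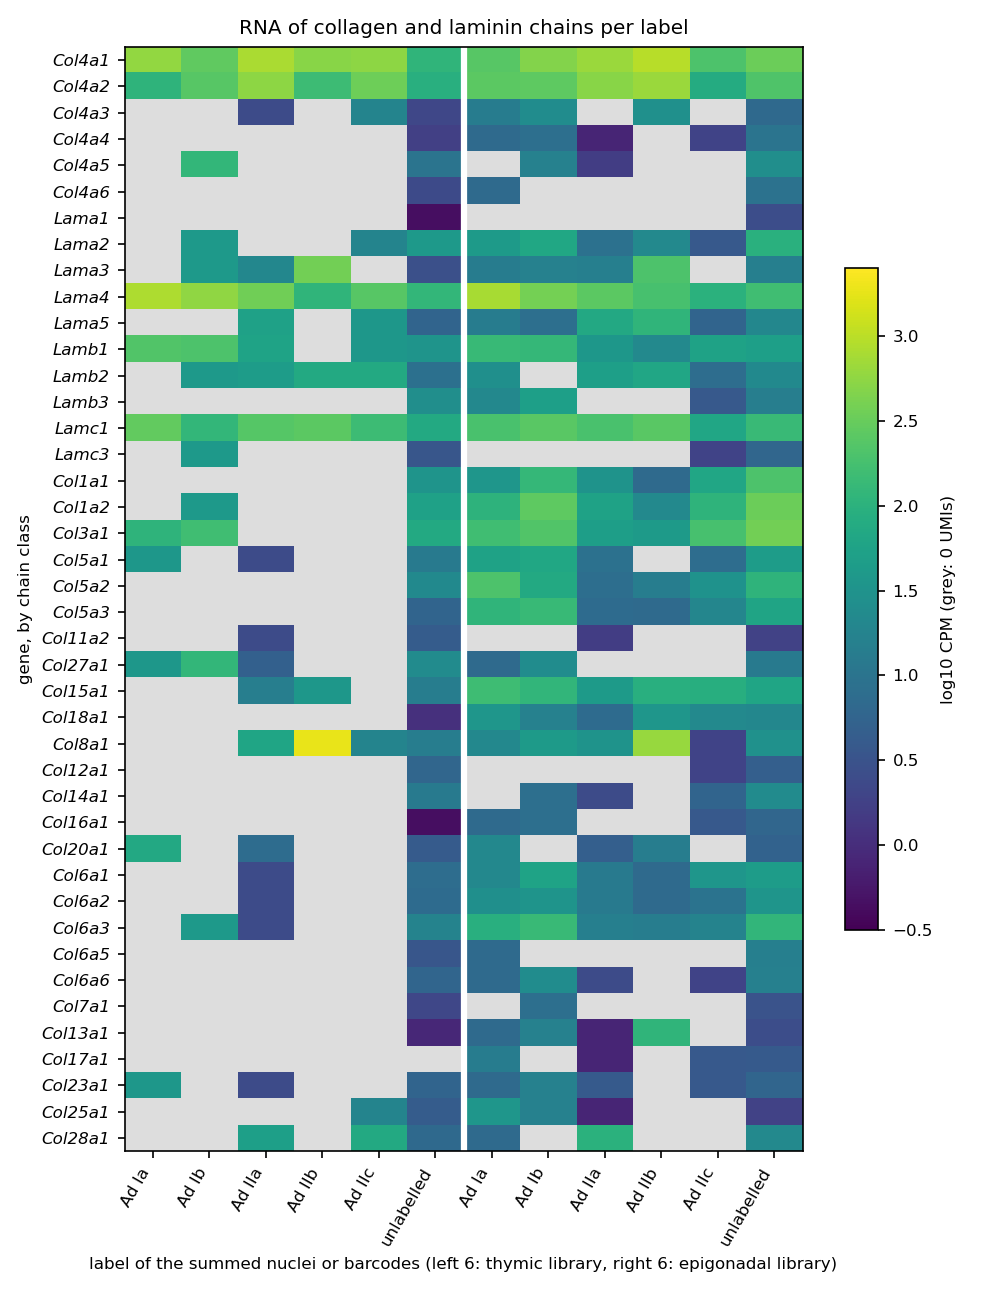
Level of the 42 members with at least 10 UMIs in some column, as log10 CPM by label and library, with unlabelled barcodes at the right of each library and grey for 0 UMIs. Col4a1, Col4a2, Lama4 and Lamc1 are filled in every label, while Col1a1, Col5a2 and Col5a3 are grey in every thymic label.

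Ad IIa was then set against Ad I within each library. A gene was counted where both sides together had at least 10 UMIs, and called higher or lower where its log2 ratio was at least 1 in size with a 95% interval that left out 0. In CPM the summed basement membrane level differed by less than counting error in both libraries, with log2 ratios of 0.17 (95% interval -0.13 to 0.49) for thymic and 0.05 (-0.09 to 0.20) for epigonadal nuclei. Both depended on the scaling, as given below. The fibrillar sum was lower in Ad IIa, by 4.24 (2.74 to 6.16) and 2.28 (2.0 to 2.57) on the log2 scale. The basement membrane sum relative to the fibrillar sum was hence higher in Ad IIa by a log2 value of 4.40 (2.94 to 5.87) for thymic and 2.34 (2.03 to 2.65) for epigonadal nuclei. Of 9 counted thymic members 1 was called higher and 1 lower, where 11.1% of all 6095 counted genes were higher and 10.3% lower. These thymic counts are near those shares and are no result about the chains. Of 22 counted epigonadal members 3 were higher and 13 lower, where 12.4% of all 10064 counted genes were higher and 13.2% lower. The median log2 ratio of those 22 was -1.42, against 0.07 over all genes. For the 9 thymic members it was 0.81, or 0.12 with the 3 members at 0 on 1 side set to the limit of 3 counts, against 0.08.

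Collagen IV chains held most basement membrane UMIs in Ad IIa and a minority of them in Ad I. Col4a1 stood at 578 and 285 CPM in thymic Ad Ia and Ad Ib, 790 in Ad IIa, 518 in Ad IIb and 553 in Ad IIc, with 114 in unlabelled barcodes. In epigonadal nuclei it stood at 244, 474, 644, 966 and 205 CPM in the same order, with 330 in unlabelled barcodes. Col4a2 stood at 108, 244, 546, 148 and 350 CPM in thymic labels and 91.2 in unlabelled barcodes, and at 258, 266, 515, 647 and 79.4 in epigonadal labels with 213. Both genes were lowest in epigonadal Ad IIc, below the unlabelled level. In Ad IIa over Ad I, Col4a2 was called higher in the thymic library at a log2 ratio of 1.59 (0.71 to 2.81), on 9 UMIs in Ad I. Its epigonadal ratio was 0.97 and the Col4a1 ratios were 0.81 and 0.88, none of them called. Collagen IV made up 35.7% (Clopper-Pearson 26.3% to 46.0%) of the basement membrane UMIs in thymic Ad I and 63.3% (59.9% to 66.5%) in thymic Ad IIa. The epigonadal shares were 37.4% (33.0% to 42.0%) and 64.6% (62.5% to 66.5%), so the intervals of Ad I and Ad IIa do not meet in either library. Col4a5, a chain of a more restricted collagen IV network, had 3 UMIs in thymic Ad Ib and 0 in the other thymic labels.

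Scaling moved the thymic ratios. With TMM, a scaling by a trimmed mean of gene ratios, every thymic ratio of Ad IIa over Ad I was higher by 0.34. Col4a1, at 1.15, and Col8a1 were then also called higher, giving 3 members higher against 1 lower, and the all-gene shares became 15.9% and 7.99%. In the epigonadal library TMM added 0.15, and Col4a1 at 1.03 and Col4a2 at 1.12 joined the higher calls, 5 against 13, with all-gene shares of 15.8% and 11.6%. Median-of-ratios scaling shifted the epigonadal ratios by -0.06 and called neither, at 0.82 and 0.91. The basement membrane sums shift alike. In CPM their intervals began at -0.13 for thymic and -0.09 for epigonadal nuclei, so with TMM both would leave out 0. With median-of-ratios scaling, which shifted the thymic ratios by 0.32, only the thymic interval would.

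Laminin alpha chains ran in opposite directions between epigonadal Ad I and Ad IIa, and neither was called in the thymic library. Lama4, the laminin alpha chain of endothelial and adipocyte basement membranes, stood at 832 and 570 CPM in thymic Ad Ia and Ad Ib, 364 in Ad IIa, 111 in Ad IIb and 240 in Ad IIc, with 120 in unlabelled barcodes. In epigonadal nuclei its levels were 787, 383, 263, 185 and 98.8 CPM, with 161 in unlabelled barcodes. Lama5, the other alpha chain of vessel walls, had 0 UMIs in thymic Ad I and Ad IIb, which allow up to 57.4 and 111 CPM, and stood at 54.8 CPM in Ad IIa and 36.9 in Ad IIc, so no thymic difference was detectable at this depth. Its epigonadal levels were 13.9, 8.32, 71.1, 114 and 5.81 CPM. Epigonadal Lama4 was highest in Ad Ia and epigonadal Lama5 in Ad IIb. In epigonadal Ad IIa over Ad I, Lama4 was lower at a log2 ratio of -1.20 (-1.48 to -0.91) and Lama5 higher at 2.43 (1.05 to 4.95). Of the 159 Lama4 UMIs of pooled epigonadal Ad I, 113 were in Ad Ia, so the Lama4 ratio leans on that label. The thymic ratios, -0.98 for Lama4 and 2.55 for Lama5, were not called. Of the UMIs of both genes, Lama5 held 1.85% (0.384% to 5.32%) in epigonadal Ad I, 21.3% (17.5% to 25.6%) in Ad IIa and 38.1% (23.6% to 54.4%) in Ad IIb. In the thymic library it held 0 of 37 in Ad I, which allows up to 9.49%, and 13.1% (8.39% to 19.2%) in Ad IIa, and these intervals overlap.

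Of the beta chains, Lamb1 was lower in Ad IIa in both libraries and Lamb2 higher in the epigonadal library. Lamb1, the beta chain of the widespread laminins, stood at 217 CPM in thymic Ad Ia and 203 in Ad Ib, against 57.3 in Ad IIa, and at 132, 125 and 37.2 in the epigonadal library. It was called lower in Ad IIa in both, at log2 ratios of -1.91 (-2.97 to -0.69) and -1.80. The thymic call rests on 11 UMIs in Ad I and 23 in Ad IIa, and at a minimum of 50 UMIs 0 thymic members were lower. Lamb2, the alternative beta chain of mature vessel walls and synapses, had 1 UMI in thymic Ad I and 44.8 CPM in Ad IIa, and stood at 15.2 and 50.9 CPM in epigonadal Ad I and Ad IIa. Its epigonadal ratio of 1.59 (0.32 to 3.67) was called higher on 4 UMIs in Ad I. With a pseudocount of 5 it was 0.69 and no longer called, while Lama5 and Col28a1, the other members called higher there, kept their calls. The thymic Lamb2 ratio of 0.68 was not called. The Lamb2 share of both genes was 43.9% (28.5% to 60.3%) in thymic Ad IIa and 57.8% (48.0% to 67.2%) in epigonadal Ad IIa. In Ad I it was 8.33% (0.211% to 38.5%), which is 1 of 12 UMIs, and 10.5% (2.94% to 24.8%). The intervals of Ad I and Ad IIa overlap in the thymic library and do not meet in the epigonadal library. Lamc1, the gamma chain of nearly all these laminins, stood at 289 CPM in thymic Ad Ia and 122 in Ad Ib, against 237 in Ad IIa, and at 188, 249 and 192 CPM in the epigonadal library. Its epigonadal log2 ratio was -0.18, not called. Lama2, the alpha chain known from muscle and nerve, was lower in epigonadal Ad IIa at 8.89 CPM against 53.1 in Ad I, a log2 ratio of -2.56, with 95 CPM in unlabelled barcodes. Both Ad I levels of Lama2 lay below the unlabelled level of their library.

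**Figure D3:**
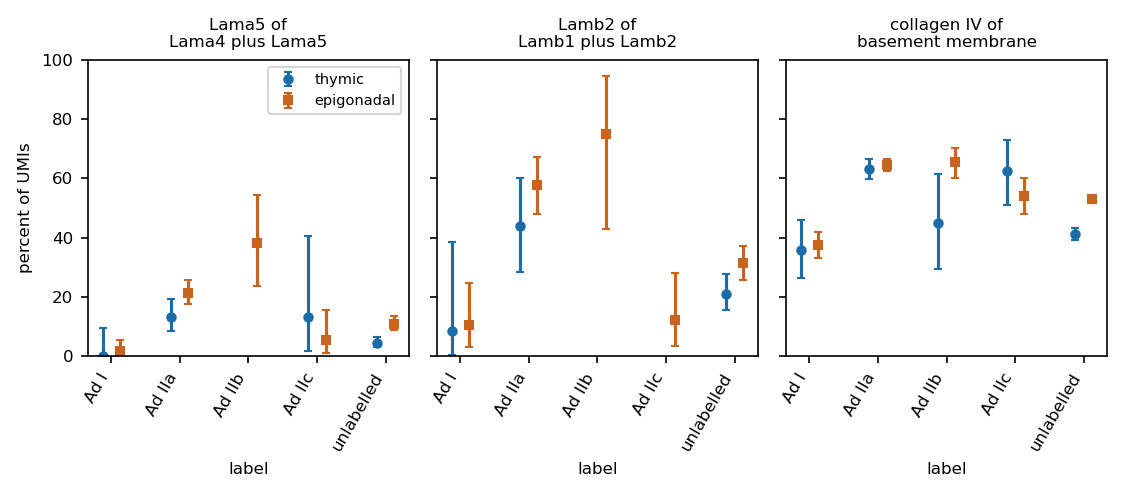
Share of UMIs in percent by label for Lama5 of Lama4 plus Lama5, Lamb2 of Lamb1 plus Lamb2, and collagen IV of the basement membrane sum, with Clopper-Pearson intervals, where the pair had at least 10 UMIs. The epigonadal Lama5 share is 1.85% in Ad I and 21.3% in Ad IIa, and the collagen IV shares are 35.7% and 37.4% in Ad I and 63.3% and 64.6% in Ad IIa.

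Fibrillar chains were lower in epigonadal Ad IIa than in pooled Ad I. Of the counted chains 6 of 6 were called lower, where 13.2% of all counted genes were lower. Col1a1 and Col1a2 encode the chains of type I collagen. Col1a1 stood at 34.8 CPM in epigonadal Ad Ia and 125 in Ad Ib, against 32.3 in Ad IIa, and Col1a2 at 104, 274 and 56.6, with 201 and 331 CPM in unlabelled barcodes. Col3a1 stood at 160, 216 and 48.5 CPM, with 376 in unlabelled barcodes. Against pooled Ad I these 3 chains were lower in Ad IIa by 1.25, 1.69 and 1.94 on the log2 scale. Col1a1 in Ad IIa was near its Ad Ia level, so its ratio comes from Ad Ib. With Ad Ia alone in place of Ad I, 10 members of all classes were lower in place of 13. The levels of the 3 chains lay below those of unlabelled barcodes in every one of these labels.

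Type V collagen, which starts and limits fibril growth, had a Col5a3 level above the unlabelled barcodes in both epigonadal Ad I labels. Col5a2 stood at 202 CPM in epigonadal Ad Ia and 74.8 in Ad Ib, against 8.08 in Ad IIa, with 109 in unlabelled barcodes. Col5a3 stood at 111, 133 and 7.27 CPM, with 60.9 in unlabelled barcodes. Their Ad IIa over Ad I log2 ratios were -4.10 and -4.00, and that of Col5a1 was -2.75. The 3 type V chains held 54.1% of fibrillar UMIs in epigonadal Ad Ia and 29.2% in Ad Ib, against 14.8% in Ad IIa and 18.8% in unlabelled barcodes. Of the 29 Col5a2 UMIs of Ad Ia, 1 nucleus held 10. Without it the level of Col5a2 in pooled Ad I was 108 CPM in place of 144, at the unlabelled level. The thymic labelled nuclei had 0 UMIs of Col5a2 and Col5a3. Thymic fibrillar UMIs were too few for a call on any 1 chain: Ad I held 13, of which Col3a1 had 7, and Ad IIa held 5, each in a nucleus of its own.

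Markers of stromal cells were summed beside the fibrillar chains. The 10 fibroblast markers summed to 995 CPM in thymic Ad I (5 detected) and 110 in thymic Ad IIa (6 detected), and to 622 and 216 CPM in epigonadal Ad I and Ad IIa (10 detected in each), with 381 and 717 CPM in thymic and epigonadal unlabelled barcodes. The 8 mural-cell markers summed to 345 and 59.8 CPM in thymic and 273 and 152 CPM in epigonadal Ad I and Ad IIa. In thymic Ad IIa over Ad I, 1 of 3 counted fibroblast and 1 of 2 counted mural markers were called lower and 0 higher. In the epigonadal library 5 of 7 counted fibroblast markers were lower and 1 higher, and 3 of 5 mural markers were lower. Macrophage markers, with sums given below, also had a lower sum in epigonadal Ad IIa than in Ad I. B-cell, erythroid and Schwann markers are not set out for this comparison. Between depots in Ad I the fibroblast sum was higher in the thymic library, while the fibrillar sum was lower, at 249 against 799.7 CPM. Of the 4 fibroblast markers counted there, 1 was higher and 1 lower, and their median log2 ratio was -1.17, the other way from their sum. Pdgfra, the defining fibroblast marker, had 0 UMIs in thymic Ad I, which allows up to 57.4 CPM, and stood at 2.49 CPM in thymic Ad IIa, 3.79 and 6.47 in the epigonadal labels, and 14.6 and 40.5 in unlabelled barcodes. Their part in the result was not tested. In Ad I, 3 of 84 thymic and 31 of 258 epigonadal nuclei had at least 3 UMIs of the endothelial markers, and without them the relative values were 4.48 and 2.32. With 10% of each sum taken off as the unlabelled profile, the epigonadal value was 3.71.

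Shares of nuclei were also taken at matched depth. Before thinning, 43.0% of epigonadal Ad I and 26.8% of Ad IIa nuclei had a fibrillar UMI, and after thinning to 500 UMIs 27.5% and 8.76%. The thymic shares were 14.3% and 2.16%, and 6.00% and 0.703% after thinning, which kept 26 of 84 Ad I and 227 of 231 Ad IIa nuclei, so the thinned Ad I share covers other nuclei and very few with a UMI. For basement membrane chains the thinned shares were 57.8% and 62.9% in thymic and 54.9% and 57.2% in epigonadal Ad I and Ad IIa.

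Chains of other classes were called between Ad IIa and Ad I in the epigonadal library only, where 12.4% of all counted genes were higher and 13.2% lower. Col8a1 at 0.02 and Col6a2 at -1.27 were counted there and not called. In the thymic library Col8a1 and Col28a1 were counted, and neither was called. Col15a1, a multiplexin of the basement membrane zone, stood at 153 and 116 CPM in epigonadal Ad Ia and Ad Ib and 42.0 in Ad IIa, with a log2 ratio of -1.70. Col18a1, the multiplexin that holds endostatin, stood at 26.5 CPM in epigonadal Ad I and 7.27 in Ad IIa, with a ratio of -1.89. Col6a1 and Col6a3, beaded-filament chains abundant around adipocytes, were lower in epigonadal Ad IIa at -1.58 and -2.87. Col28a1, a collagen with von Willebrand factor A domains, ran against these: it stood at 98.6 CPM in epigonadal Ad IIa and 3.79 in Ad I, a ratio of 4.12. The Ad I level is 1 UMI, and with a pseudocount of 5 the ratio was 2.17. In the thymus Col28a1 stood at 49.8 CPM in Ad IIa, under the 57.4 CPM that 0 UMIs allow in Ad I, and its ratio was not called. It was detected in 12.5% of epigonadal and 6.93% of thymic Ad IIa nuclei.

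The next comparison set the depots against each other within a label. In Ad IIa the thymic library had a basement membrane level close to the epigonadal one, with a log2 ratio of 0.23 (0.12 to 0.35), and less fibrillar RNA, at -3.59 (-5.36 to -2.47). The relative value was 3.82 (2.59 to 5.05). Of 20 counted members 0 were called higher and 4 lower, where 3.0% of all 9775 counted genes were higher and 9.03% lower. Col1a1, Col1a2 and Col3a1 had 0 UMIs in thymic Ad IIa and 40, 70 and 60 in epigonadal Ad IIa. With each 0 set to 3 counts they were 4.33-fold, 7.57-fold and 6.49-fold lower, the counting error of the epigonadal UMIs left aside. Col15a1 was lower at -1.39 (-3.00 to -0.27). None of the 9 counted basement membrane chains was called. Their median was 0.29, and that of the fibrillar chains -4.72, or -2.11 with chains at 0 set to 3 counts. Of the cell markers, 8 of 10 adipocyte markers were lower in thymic Ad IIa, with a median log2 ratio of -2.74 and sums of 3126 and 5029 CPM. Of the mural markers 2 of 4 counted were lower, with sums of 59.8 and 152 CPM, and of the fibroblast markers 1 of 5 counted was lower, with 110 and 216 CPM. Erythroid markers were higher in 4 of 4 counted, with 521 and 133 CPM, and T-cell markers were higher in 2 of 3. Macrophage markers were lower in 1 of 2, while their sum, given below, was higher in the thymic library. B-cell and Schwann markers are not set out for this comparison. None of the 9 endothelial markers was called. Their part in the result was not tested. TMM lowered every ratio by 0.15, which turned the sign of Col4a2, added Col28a1 and Col6a3 to the lower calls and made the all-gene shares 1.86% and 12.03%. That shift exceeds the 0.12 at which the interval of the basement membrane sum began, so 0 would lie inside it.

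In unlabelled barcodes both classes were lower in the thymic library. They share the direction of the labelled nuclei for fibrillar chains, and not for the basement membrane sums in CPM without further scaling. Between thymic and epigonadal unlabelled barcodes the log2 ratio was -1.06 for basement membrane and -2.30 for fibrillar chains, a relative value of 1.23 (1.11 to 1.35). Of 47 counted members 0 were higher and 28 lower, 11 of them among 16 basement membrane chains. They included Col1a1 and Col1a2 at -2.62 each and Col3a1 at -2.34, where 9.21% of all counted genes were higher and 20.4% lower. The cell markers differed as well. T-cell markers were higher in 8 of 8, with a median log2 ratio of 3.54 and sums of 5008 and 406 CPM in thymic and epigonadal barcodes. Macrophage markers were lower in 6 of 6, with a median of -2.62 and sums of 91.0 and 523 CPM. Fibroblast markers were lower in 7 of 10, adipocyte in 6 of 10, endothelial in 4 of 9 and mural in 3 of 8, each with 0 higher. The part of these cells in the member values, and of the unlabelled difference in the labelled nuclei, was not tested.

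Ad I showed the same direction as Ad IIa for fibrillar chains and the relative value, with fewer UMIs. The basement membrane log2 ratio of thymic over epigonadal Ad I was 0.12 (-0.21 to 0.43), the fibrillar ratio -1.63 (-2.62 to -0.88) and the relative value 1.75 (0.90 to 2.61). Of 15 counted members 0 were higher and 4 lower, where 5.87% of all 5346 counted genes were higher and 3.65% lower. These lower calls rest on few UMIs: with a pseudocount of 5 or at least 50 UMIs 0 members were lower, with Ad Ib alone 1 and with Ad Ia alone 2. Col1a2 was lower at -2.68. Col5a2, Col5a3 and Col15a1 had 0 thymic UMIs, and with each 0 set to 3 counts they were 2.51-fold, 2.11-fold and 2.38-fold lower. For Col5a2, 1 nucleus held 10 of the 38 epigonadal UMIs. With TMM, 0.34 lower throughout, the basement membrane sum, Lama4 and Lamc1 changed sign, Col1a1 and Col6a3 joined the lower calls, and the all-gene shares became 2.62% and 7.41%. Median-of-ratios scaling shifted the ratios by -0.33 and turned the sign of that sum as well. Of the cell markers, T-cell markers summed to 421 CPM in thymic against 106 in epigonadal Ad I, with 1 of 2 counted higher. Macrophage markers summed to 172 against 409 CPM, with 0 of 2 called. Adipocyte markers were lower in 2 of 10, endothelial markers higher in 1 of 8, and mural markers higher in 1 and lower in 1 of 4. Their part in the result was not tested.

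**Figure D4:**
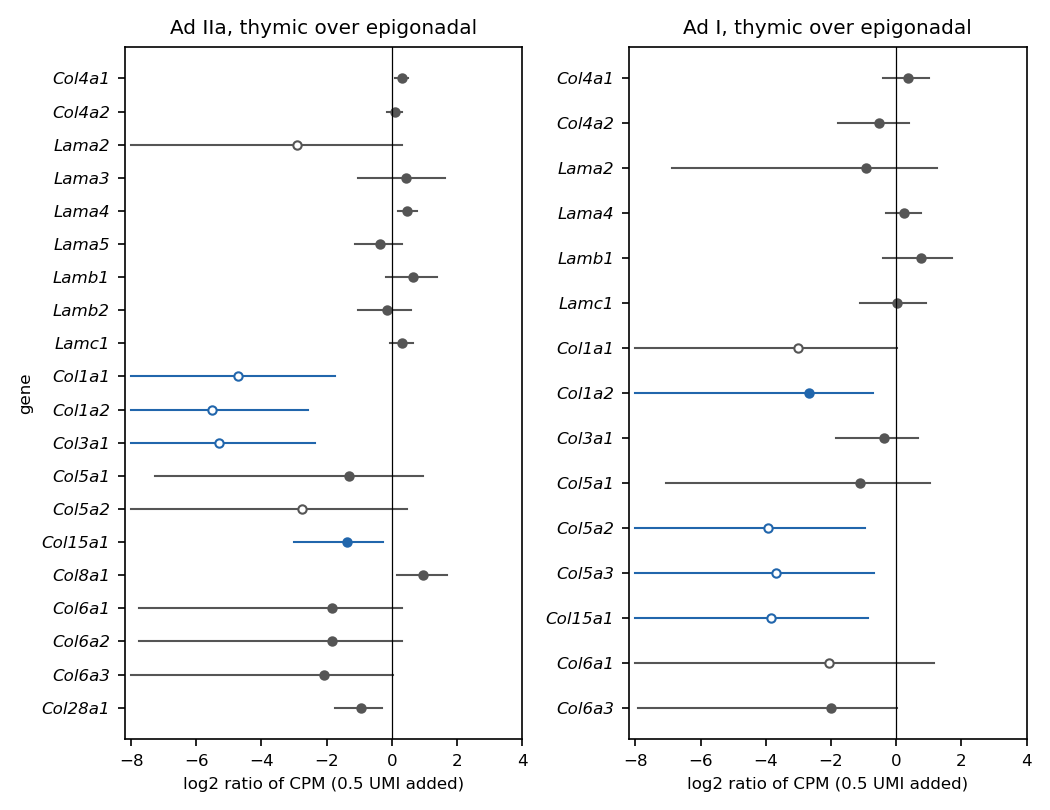
Log2 ratio of thymic over epigonadal CPM for each counted member in Ad IIa and in Ad I, with 95% intervals of counting error clipped at -8. Blue points are called lower, grey points are not called and open points have 0 UMIs on 1 side. No basement membrane chain is called, and Col1a2 is lower in both labels.

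Ad IIb, a label of 16 thymic and 58 epigonadal nuclei, carried a distinct chain. Col8a1, a short-chain collagen of vessel walls, stood at 1850.5 CPM in thymic Ad IIb, 62.3 in Ad IIa, 18.4 in Ad IIc and 0 in Ad I, with 14.3 in unlabelled barcodes. In the epigonadal library it stood at 618 CPM in Ad IIb, 32.3 in Ad IIa, 30.3 in Ad I and 1.94 in Ad IIc, with 29.6 in unlabelled barcodes. Its log2 ratio of Ad IIb over Ad IIa was 4.88 (4.17 to 5.65) for thymic and 4.25 (3.70 to 4.83) for epigonadal nuclei. Col8a1 was found in 13 of 16 thymic and 25 of 58 epigonadal Ad IIb nuclei, against 5.63% and 4.24% of Ad IIa nuclei and 0.152% of epigonadal Ad IIc nuclei. Lama3, best known as an alpha chain of epithelial anchorage, stood at 370 CPM in thymic and 206 in epigonadal Ad IIb, against 19.9 and 15.4 in Ad IIa. Its ratios were 4.20 (2.72 to 5.76) and 3.73 (2.86 to 4.66).

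These were the members called higher in thymic Ad IIb, 2 of 10 counted, where 3.82% of all counted genes were higher and 1.72% lower. Col4a2 at -1.72 and Lama4 at -1.49 were the lower ones. In epigonadal Ad IIb, 5 of 23 counted members were higher and 1 lower, where 4.0% of all counted genes were higher and 3.33% lower. Besides Col8a1 and Lama3 the higher ones were Col13a1, a transmembrane collagen, at 6.6, Col18a1 at 2.35 and Col15a1 at 1.18. The Col13a1 ratio rests on 16 UMIs in Ad IIb and 1 in Ad IIa. Col28a1, the lower one, had 0 UMIs against 122 and was 4.63-fold lower with the 0 set to 3 counts. Thymic Ad IIb had 0 UMIs of Col13a1, which allows up to 111 CPM, so no depot difference is read from it. Pecam1 stood at 1332 and 1322 CPM in thymic and epigonadal Ad IIb, and the endothelial markers summed to 9437 and 8725 CPM. Fibroblast markers summed to 555 CPM in thymic Ad IIb against 110 in Ad IIa, with 1 of 3 counted higher, and to 412 against 216 CPM in the epigonadal library, with 2 of 5 higher. Macrophage markers summed to 629 against 239 CPM and 320 against 175 CPM, with 1 of 1 and 1 of 2 counted higher. After thinning to 500 UMIs, 4.81% of thymic Ad IIb and 12.5% of thymic Ad IIa nuclei had a T-cell marker UMI, and 1.26% and 7.09% in the epigonadal library. B-cell and erythroid markers are not set out for these comparisons. Adipocyte markers were called in 0 of 6 in the thymic and lower in 3 of 10 in the epigonadal library. Their part in the result was not tested.

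Against Ad IIa, the basement membrane sum had a log2 ratio of -1.76 (-1.95 to -1.58) in epigonadal Ad IIc. It was 0.48 (0.31 to 0.64) in epigonadal Ad IIb and -0.50 (-1.01 to -0.06) in thymic Ad IIb. The relative value of basement membrane over fibrillar chains in epigonadal Ad IIc was lower than in Ad IIa by 3.10 (2.77 to 3.43) on the log2 scale. Lama5 was lower by 3.4, Col4a2 by 2.68, Lamb2 by 2.56, Col4a1 by 1.64, Lamc1 by 1.56 and Lama4 by 1.40. Col8a1 was lower by 3.49, and Lama3 and Col28a1 had 0 UMIs. Col3a1 at 1.93, Col5a2 at 1.91, Col18a1 at 1.54, Col6a1 at 1.43 and Col15a1 at 1.05 were the members called higher. Of 22 counted members 5 were higher and 9 lower, where 19.3% of all counted genes were higher and 32.0% lower, so both counts are to be read against a wide difference between the labels. Pecam1 stood at 48.4 CPM and Adipoq at 2513 CPM in epigonadal Ad IIc. Endothelial markers were lower there in 9 of 9, and adipocyte markers higher in 8 and lower in 1 of 10. Fibroblast markers were higher in 2 and lower in 2 of 5, and mural markers higher in 1 of 5. Erythroid markers were higher in 3 of 4, with sums of 393 against 133 CPM in Ad IIa. The 1 counted Schwann marker was higher, with sums of 157 against 30.7 CPM. The 1 counted T-cell marker was lower, with sums of 13.6 against 137 CPM. Macrophage and B-cell markers were lower in 1 of 2 each. The part of all these markers in the result was not tested. Thymic Ad IIc, by contrast, carried 903 CPM of Pecam1 and 0 fibrillar UMIs, so the same label held different marker levels in the 2 libraries.

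The genes that work with the chains were taken from lists of partners, enzymes and receptors. In thymic Ad IIa over Ad I, 2 of 4 counted basement membrane partners were higher, among them Hspg2, which encodes perlecan, at 493 against 76.6 CPM and a log2 ratio of 2.52. Receptors for collagen and laminin were higher in 3 of 5 counted, led by Itga6 at 3.31, an integrin chain for laminins, and Itga1 at 1.64, one for collagens. Dag1, which encodes dystroglycan, was lower at -1.54. Genes of matrix breakdown and its inhibitors were higher in 2 of 3 counted and folding genes in 1 of 7, with 0 lower in either, and 0 of 3 trimming genes were called. In the epigonadal library 2 of 6 partners were higher, with Hmcn1 at 1.32 and Hspg2 at 1.01. Receptors were higher in 3 and lower in 3 of 9, from Itga1 at 2.40 and Itga6 at 2.15 down to Ddr2, a receptor for fibrillar collagen, at -2.23 and Itga7 at -3.63. Of the folding and hydroxylation genes 5 of 14 were higher and 1 lower, with P4hb, a subunit of collagen prolyl hydroxylase, at 1.88 and P3h2 at -2.39. Of the trimming and crosslinking genes 0 of 5 were higher and 2 lower, namely Adamts2 at -2.86, which cuts fibrillar procollagen, and Loxl1 at -2.47. Decorin, encoded by Dcn, was lower at -1.30, the only call among 5 small leucine-rich partners of fibrils. Of 8 genes of matrix breakdown and its inhibitors 2 were higher and 3 lower, from Timp3, an inhibitor, at 2.25 to the protease gene Mmp3 at -3.15.

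Between depots in Ad IIa, the small leucine-rich partners were lower in 3 of 4 counted, with Dcn at -3.33. The partners of the basement membrane were higher in 1 of 6, Hmcn1 at 2.03. Folding genes were higher in 2 and lower in 1 of 14, trimming genes higher in 1 of 4, receptors lower in 1 of 8 and genes of matrix breakdown lower in 2 of 7. These lists were read as counts only, beside the same background shares as the members.

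Accessibility of the chain genes was read in the 6-month chromatin library, as fragments that overlap a gene or the 2 kb next to each of its ends. It held 146 nuclei of thyAD I with 1646902 fragments, 140 of thyAD II with 2189613 and 31 of Immune with 561387. Of the 55 members 54 had at least 20 fragments over thyAD I and thyAD II. A call needed a log2 ratio of at least 0.5 with an interval that left out 0. Of the 54, 6 were higher and 3 lower in thyAD II, where 4.78% of all 23429 counted genes were higher and 3.58% lower. The member median was 0.16 against 0.02 over all genes.

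Col15a1, Col5a1 and Lama5 were among the 6 higher members. Col15a1 had 456 fragments in thyAD II against 189 for thyAD I, with a log2 ratio of 0.86 (0.61 to 1.11). Col5a1 had 396 and 192, a ratio of 0.63 (0.38 to 0.89), and Lama5 125 and 60, a ratio of 0.64 (0.19 to 1.12). Col6a1 at 1.72, Col14a1 at 0.67 and Col5a2 at 0.66 were the other higher members, and Col4a5 at -0.79, Lamc3 at -0.64 and Col25a1 at -0.55 the lower ones. None of the 6 higher members could be set against a call in thymic RNA: Lama5 had 22 UMIs in Ad IIa and 0 in Ad I and was not called, and the other 5 had too few UMIs to be counted, Col15a1 with 6 and 0 among them. Col4a1 with 444 and 315 fragments and Col4a2 with 623 and 412 gave ratios of 0.08 and 0.19, and Lama4, Lamb1 and Lamb2 of -0.04, -0.04 and -0.02, none of them called. Lamb1, which was lower in Ad IIa RNA of the 4-month males, thus differed little over its gene in the 6-month females, and age, sex and assay cannot be told apart here.

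Basement membrane relative to fibrillar accessibility was lower in thyAD II by 0.18 (0.03 to 0.34) on the log2 scale. That value rested on Col5a1: without it the value was 0.0024. Scaled to depth and per kb of window, Lamb2 had 3.97 and 3.92 in thyAD I and thyAD II, above Lamb1 with 2.10 and 2.05 and Col4a1 with 1.61 and 1.71. Values per kb depend on the length of the window, and this order was not kept in the start-site windows given next. In windows of 1 kb around the start site, in counts-per-million of the fragments of each group, thyAD I and thyAD II had 10.9 and 16.4 for Col4a1, 10.9 and 21.9 for Col5a1, and 6.07 and 10.5 for Lama5. Col3a1 had 3.04 and 4.11, Lamb1 9.11 and 9.13, and Lamb2 9.11 and 6.39. These rest on 5 to 48 fragments each. The Col4a1 and Col4a2 windows share fragments. The endothelial markers, which separated Ad IIa from Ad I in RNA, gave 1 of 8 higher and the adipocyte markers 1 of 10 lower in thyAD II. Of the fibroblast markers 2 of 10 were higher and 0 lower, and of the mural markers 1 of 8 was higher and 0 lower. Their part in the fragments of the collagen and laminin genes was not tested.

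**Figure D5:**
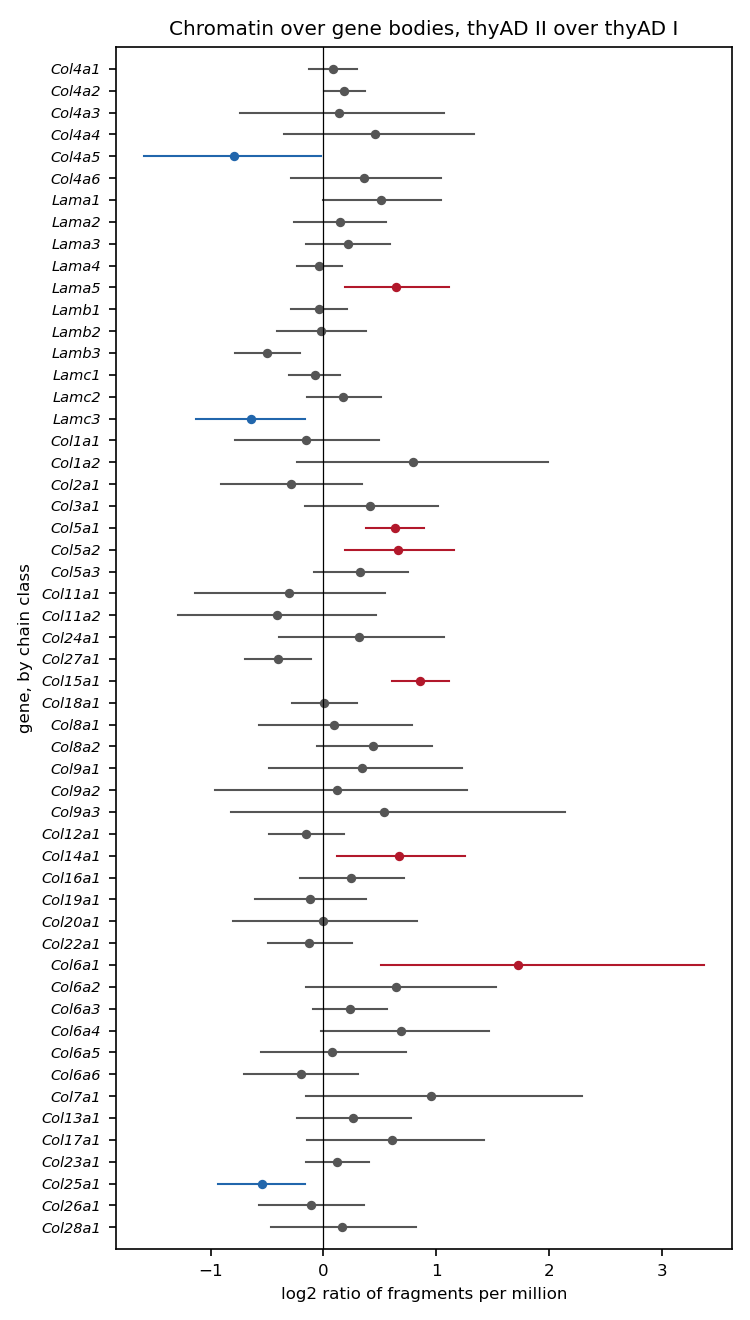
Log2 ratio of depth-scaled fragments in thyAD II over thyAD I for each counted member, over the gene and 2 kb beyond each end, with 95% intervals of counting error. Red points are called higher and blue points lower. Col15a1 lies at 0.86 and Col4a1 at 0.08.

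The Immune nuclei served as a contrast of known kind, with T-cell markers higher in 8 of 8 counted against thyAD I. Of 49 counted members 1 was higher, Col24a1 at 1.26, and 7 were lower, where 9.73% of all counted genes were higher and 10.3% lower. The lower ones included Col18a1 at -1.22, Lamb1 at -0.90, Col4a1 at -0.59 and Lama4 at -0.52. The count of lower members is near the all-gene share and is no result about the chains.

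The authors' joint clusters split both thymic labels further. In thyAD I, cluster 3 over cluster 1 was higher for Col3a1 at 1.11, Lama2 at 0.94 and Col6a3 at 0.77 and lower for Lamb3 at -0.68 and Col27a1 at -0.62, where 5.15% of all counted genes were higher and 3.87% lower. In thyAD II, cluster 4 over cluster 0 was higher for Col8a1 at 0.91 (0.03 to 1.82) and Lama1 at 0.70 and lower for Col11a1 at -1.43 and Col19a1 at -0.71, where 2.39% of all counted genes were higher and 3.81% lower. These are 3 higher and 2 lower of 47 counted members, and 2 higher and 2 lower of 52, shares near those of all genes that are no result about the chains.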

How the data were processed

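Barcodes and labels were used as deposited. For RNA, the authors deposited unnormalised UMI counts for each gene in each barcode, and per the file headers cellranger 7.2.0 wrote them. The submitters' processing notes name Cell Ranger ARC 2.0.2, Seurat 5.1.0 and the build mm10, with no role given. How introns were counted is not stated there. Per nucleus the authors deposited a count of UMIs or fragments, the percent of mitochondrial UMIs and a label. No doublet caller was run, and the authors' own classes stand. Of the 6-month table, 317 complete rows were used, 1 incomplete row was left out, and later nuclei were not analysed here.

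For every label of a library the UMIs were added up and divided by the sum over nuclear-encoded genes (CPM). Log2 ratios had 0.5 UMIs added to each sum, with exact binomial intervals. Sums had exact Poisson intervals and shares Clopper-Pearson intervals, all at 95%. A count of 0 was given a limit of 3 counts. Folds against 0 use that limit and leave out the counting error of the other side. Shares of nuclei were also computed after thinning to 500 UMIs, leaving out shallower nuclei. Each fragment was counted 1 time. Calls are descriptions of counting error in 1 library per group, and the labels do not say that nuclei came from separate animals. The members and all gene lists were chosen with earlier results of these data known. Members with at least 10 UMIs could be named, and of each partner list the 2 highest and 2 lowest ratios, with a few others named after their values were seen. Promoter windows came from RefSeq (GRCm38.p6) for 40 of 55 members. Python 3.11.15, scipy 1.17.1, R 4.3.3 and edgeR 4.0.16 (TMM factors only) were used. The counting script was tested on simulated data. Alternatives were other scalings, count minimums, pseudocounts, thresholds, nuclei and windows.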

Additional observations from a re-analysis of the deposited data

How the results depend on the processing

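No paired analysis was possible because each group was 1 library. Of 139 alternative values, 108 stayed within the interval of the main ratio or within 1.5 times the main count, and 30 moved further. The remaining 1 changed sign, to a chromatin value of only 0.0024. Not all were free to move: a minimum of 500 UMIs per nucleus returned the main values unchanged for epigonadal Ad IIa over Ad I and for Ad IIa between depots. Intervals were wide, so a fall from 4.40 to 3.06 in thymic Ad IIa over Ad I counted as staying within. The basement membrane value relative to fibrillar chains ranged from 3.06 to 4.95 in thymic Ad IIa over Ad I, 2.07 to 3.71 in the epigonadal library, 2.81 to 4.07 for Ad IIa between depots and 1.42 to 2.55 for Ad I. The 3.71 came from taking off 10% of the unlabelled profile.

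Member counts moved as follows, and the cause was not tested unless the setting itself removes genes or nuclei. All-gene shares were taken only for TMM, median-of-ratios scaling and cut sites, so the other counts give no result about the chains. In thymic Ad IIa over Ad I, TMM and median-of-ratios scaling each gave 3 higher, where 15.9% and 15.7% of all genes were higher. Ad Ib alone gave 2 higher, and a threshold of 2 on the log2 scale 0 higher and 0 lower. Lower members there were 2 without the nuclei rich in endothelial UMIs, 2 with Ad Ia alone, 2 with a pseudocount of 5, 4 with no minimum and 0 with at least 50 UMIs. In the epigonadal library TMM gave 5 higher, where 15.8% of all genes were higher. Lower members there were 21 with no minimum, 6 with at least 50 UMIs and 5 at a threshold of 2. For Ad IIa between depots, equal weight per nucleus gave 8 lower, and subtraction and a pseudocount of 5 gave 1 higher each. For Ad I between depots, equal weight and Ad Ia alone gave 1 higher each, and lower members were 2 with Ad Ia alone, 1 with Ad Ib alone, and 0 with a pseudocount of 5 or at least 50 UMIs. In chromatin, cut sites, which count each fragment at both ends, gave 12 higher and 4 lower, where the all-gene shares were 9.29% and 6.51%. Windows around gene ends gave 3 higher, 0 lower and a relative value of -0.41, and a threshold of 1 gave 1 higher and 0 lower. Leaving out Col5a1 took the relative value from -0.18 to 0.0024, so the difference was gone and not turned around. The alternatives on Ad I subsets and Col5a1 were chosen after seeing the data. Depth limits thymic Ad I, with 84 nuclei and 52241 UMIs, and Ad IIb, with 16 nuclei.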

Other observations

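Unlabelled barcodes were grouped by the marker list of which they held most genes, with at least 2 detected. Barcodes with fibroblast markers, 66 thymic and 136 epigonadal, held 6157 and 9297 CPM of fibrillar chains beside 3865 and 3907 CPM of basement membrane chains. Barcodes with endothelial markers, 470 and 135, held 20.3 and 286 CPM of fibrillar and 1453 and 1737 CPM of basement membrane chains. Thus the unlabelled endothelial group had basement membrane shares of 98.6% and 85.9%, and the fibroblast group 38.6% and 29.6%. Barcodes with mural markers were few, 35 and 28, with shares of 75.6% and 63.8%. Barcodes with adipocyte markers, 1208 and 2094, had shares of 86.0% and 60.2%, with 188 and 647 CPM of fibrillar chains.

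Lamb3, a beta chain known from epithelial laminin, had 0 UMIs in every thymic label and 122 in unlabelled thymic barcodes, 50 of them in barcodes with T-cell markers, which held 33.58% of unlabelled thymic UMIs. Its level there, 32.3 CPM, was near the 26.5 CPM of all unlabelled thymic barcodes. The Lamb3 window held 194 chromatin fragments for thyAD II and 206 for thyAD I, and its log2 ratio of -0.50 was not called.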
